A study of Mus musculus with 20 samples.

Results

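The genes described here are 9 transcription factors of the prostate epithelium, Foxa1, Gata2, Gata3, Sox9, Grhl2, Ehf, Elf3, Spdef and Trp63. They were taken as a list of symbols by no rule on their values, but earlier results of these data were known when it was chosen. All 9 were found among the 43472 genes of the count table. RNA was sequenced in bulk from the ventral prostate, a lobe of the mouse prostate that depends on androgen, of orchidectomised males given vehicle or testosterone as replacement for 4 days. The 4 groups of 5 libraries were wild type C57BL/6J males (WT) with vehicle, WT with testosterone, ARNoC/Y males (ARNoC) with vehicle and ARNoC with testosterone. In ARNoC/Y mice the androgen receptor is changed so that its N-terminal and C-terminal parts do not bind each other. All 20 libraries are therefore from males without testes, and no intact male is among them. The sources used here give neither the age of the animals nor the testosterone dose. Whether each library is a separate animal is not stated, so a p-value reflects only how these libraries differ among themselves, in part perhaps technically.

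Foxa1, Gata2 and Gata3 belong to the pioneer factors, proteins that bind their sites in closed chromatin and open it for other regulators. In prostate cells Foxa1 and Gata2 are known to help the androgen receptor reach its sites. Grhl2 keeps epithelial adhesion genes active, Sox9 is needed for prostate buds to form, and Ehf, Elf3 and Spdef are ETS factors found mainly in epithelia, of which Spdef is tied to secretory differentiation. Trp63, the gene of p63, marks and maintains the basal cells that lie beneath the secretory luminal cells.

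Libraries held 8861646 to 21600352 counts, and the test covered 15261 genes, all 9 factors among them, that reached 10 normalized counts in 5 or more libraries. A normalized count is a read count scaled by its library's size factor. The lowest raw count of a factor was 53, for Gata2, and the highest was 20724, for Ehf. The 14 epithelial markers summed to 58629.6 to 70943 normalized counts in WT with vehicle, 55794 to 66979 in WT with testosterone, 63825 to 77032 in ARNoC with vehicle and 52778 to 69113 in ARNoC with testosterone, so epithelial RNA was present in every library. Seminal vesicle markers summed to 0 to 50.7. Urothelial markers summed to 7781 to 12851 and 8447 to 11105 in WT with vehicle and with testosterone, which overlapped, and to 9775 to 13312 and 4089.5 to 7182 in ARNoC, which did not. The stroma varied: in WT vehicle library 2 and in ARNoC vehicle library 5 fibroblast sums were the lowest (20399.7 and 9371) of their groups, as were macrophage sums (3407 and 2974). These libraries are called stroma-poor here for those sums alone. The smooth muscle sum of WT vehicle library 2 (20822) was the median of its group, and that of ARNoC vehicle library 5 (12572) the lowest. Calls of the 9 factors that rest on these libraries are given with and without them. With testosterone, all 12 macrophage markers fell in WT and 10 of 12 in ARNoC (5 when scaled to the epithelial markers), and 3 of the 14 epithelial markers rose and 4 fell in WT (2 and 5 in ARNoC). Among all macrophage markers the smallest adjusted p in WT were those of Ctss (-1.92) and Aif1 (-2.13), and among epithelial markers those of Spint1 (-0.42) and Ap1m2 (0.35). Luminal markers rose and fell in counts of 5 and 3 of 12 in WT and 7 and 2 in ARNoC, fibroblast markers in counts of 1 and 5 of 12 and 0 and 1 of 12, and smooth muscle markers in counts of 1 and 0 of 10 and 5 and 0. The fibroblast and smooth muscle counts changed without these libraries: without WT vehicle library 2, 10 fibroblast markers fell in WT, and without ARNoC vehicle library 5, 6 fibroblast markers fell in ARNoC and 3 smooth muscle markers rose. In WT, DESeq2 called 10 fibroblast markers lower and limma-voom 1. Over all genes tested, 20.4% rose and 18.8% fell in WT, and 19.4% and 16.8% in ARNoC. With epithelial-marker scaling 19.9% were higher and 13.6% lower in WT, and 23.2% and 9.53% in ARNoC. Counts of each list of genes are read against these shares. Scaling by total counts in place of the trimmed mean put the median log2 change of all genes at -0.45 in WT and -0.36 in ARNoC, in place of -0.02 and -0.01, and 59.8% of all genes were then called lower in WT and 49.5% in ARNoC, so changes and counts under that scaling are read against these values.

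RefSeq promoter windows (build GRCm38.p6) were held for 5 of the 9 factors, and 3 are shown, for Spdef, which rose with testosterone, Gata3, which fell, and Foxa1, whose change did not pass the test. Each is the 250 bases before the RefSeq start, 5′ to 3′ on the strand of the gene, with the match to a searched motif in capitals. Positions of matches count from the RefSeq start. That start differs from the start of the gene in the GENCODE annotation, whose bounds are given below. The windows of Gata3 and Foxa1 lie inside those bounds, which reach to 9890034 and 57546916, and so do not precede that annotation's start.
Spdef promoter, chr17:27728952-27729201, minus strand: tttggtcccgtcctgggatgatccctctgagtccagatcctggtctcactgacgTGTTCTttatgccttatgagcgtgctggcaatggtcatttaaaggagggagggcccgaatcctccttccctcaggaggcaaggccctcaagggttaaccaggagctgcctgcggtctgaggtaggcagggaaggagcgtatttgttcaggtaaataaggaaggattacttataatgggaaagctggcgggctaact
Gata3 promoter, chr2:9878601-9878850, minus strand: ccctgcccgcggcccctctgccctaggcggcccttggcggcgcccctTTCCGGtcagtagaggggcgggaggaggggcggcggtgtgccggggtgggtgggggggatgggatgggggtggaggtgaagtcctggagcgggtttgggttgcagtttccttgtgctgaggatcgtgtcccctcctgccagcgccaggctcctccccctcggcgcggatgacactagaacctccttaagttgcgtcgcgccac
Foxa1 promoter, chr12:57546112-57546361, minus strand: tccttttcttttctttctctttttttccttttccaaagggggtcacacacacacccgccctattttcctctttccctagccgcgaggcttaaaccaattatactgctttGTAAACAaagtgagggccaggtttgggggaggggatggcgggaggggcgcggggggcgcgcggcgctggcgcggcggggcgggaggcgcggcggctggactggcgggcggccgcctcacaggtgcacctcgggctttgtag
The capitals mark a steroid receptor half-site (AGAACA, read on the opposite strand) at -196 to -191 from the start of Spdef, an ETS core (CCGGAA, opposite strand) at -203 to -198 of Gata3 and a forkhead motif (TGTTTAC, opposite strand) at -141 to -135 of Foxa1. Of the 32851 promoters in the RefSeq table, 19% held the half-site, 14.9% the ETS core and 8.48% a forkhead motif (TGTTTAC or TGTTTGC) on either strand of their 300 bases, so none of these is rare. The other motifs searched were those of GATA factors, written AGATAA or TGATAA (18.6% of promoters), Grainyhead (AACNGGTT, 2.09%), SOX (ACAATGG, 3.66%), a p53 family pair (CATGNNNNNNCATG, 0.712%) and paired half-sites (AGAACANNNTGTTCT, 0.00913%). The pair holds the half-site within it, and other overlaps between motifs were not removed. The window of Elf3 and both windows of Gata2 held none of these letters. The G+C share was 52.8% in the Spdef window, 70.0% in that of Gata3 and 62% in that of Foxa1, where the median promoter has 52.4%. A match is a description of the letters and shows neither binding nor its absence.

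Per kilobase of exon, Ehf and Foxa1 stood highest in every group and Gata2 and Trp63 lowest. In WT with vehicle the median normalized counts per kilobase were 2234 for Ehf, 1850.1 for Foxa1, 625 for Elf3, 467 for Spdef, 279 for Sox9, 269 for Gata3, 157 for Grhl2, 34.3 for Gata2 and 30.4 for Trp63. Between neighbours in this order, the libraries of Elf3 and Spdef, of Sox9 and Gata3, of Gata3 and Grhl2 and of Gata2 and Trp63 overlapped, while the other neighbours did not. ARNoC with vehicle gave the same order, with Ehf and Foxa1 overlapping there and Gata3 and Grhl2 apart. In both testosterone groups Spdef came next after Ehf and Foxa1, at 874 in WT and 953 in ARNoC, above Elf3 (428 and 368) with no overlap, and Gata3 came seventh, at 144 and 144, below Grhl2 (213 and 219.9). Ehf and Foxa1 overlapped in both testosterone groups, as did Gata2 and Trp63, and Sox9 and Elf3 overlapped in ARNoC with testosterone. These are levels per length, not differences. The plot of levels per kilobase shows the crossing of Spdef over Elf3 and of Gata3 under Grhl2.

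**Figure D1:**
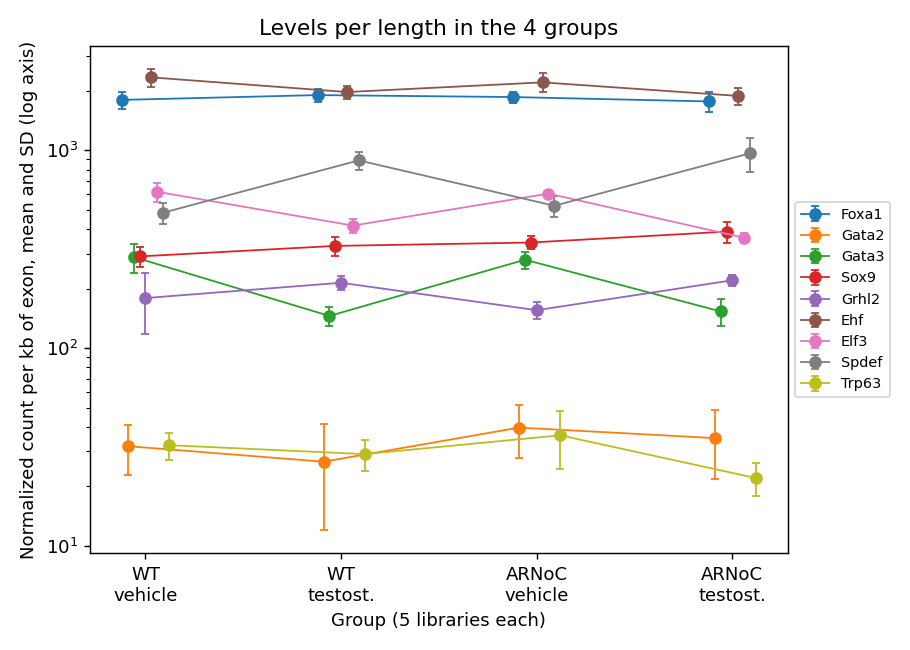
Mean normalized count per kilobase of exon (log axis) of the 9 factors in the 4 groups, with the SD over 5 libraries as error bars; lines only join the points of a factor. Spdef lies below Elf3 in both vehicle groups and above it in both testosterone groups.

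With testosterone some of the factors rose and others fell. In WT, 1 of the 9 rose (Spdef) and 3 fell (Gata3, Elf3 and Ehf), where 20.4% of all tested genes rose and 18.8% fell. In ARNoC, 2 rose (Spdef and Grhl2) and 3 fell (Gata3, Elf3 and Trp63), where 19.4% of all genes rose and 16.8% fell. The median log2 change of the 9 was -0.14 in WT and -0.18 in ARNoC, against -0.02 and -0.01 over all genes tested. The libraries with and without testosterone did not overlap for 3 factors in WT (Gata3, Elf3 and Spdef), where this held for 27% of all genes, and for these and Grhl2 in ARNoC, where it held for 23.1%. Calls are those of edgeR's quasi-likelihood F-test at a Benjamini-Hochberg adjusted p below 0.05 over all genes tested. Without WT vehicle library 2, Grhl2 and Sox9 also rose in WT and the fall of Ehf was no longer called, which makes 3 higher and 2 lower. Total-count scaling gave 1 higher and 6 lower in WT and 1 higher and 5 lower in ARNoC, where it called 59.8% and 49.5% of all genes lower. The plots of the values by library and of the log2 changes show these patterns.

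**Figure D2:**
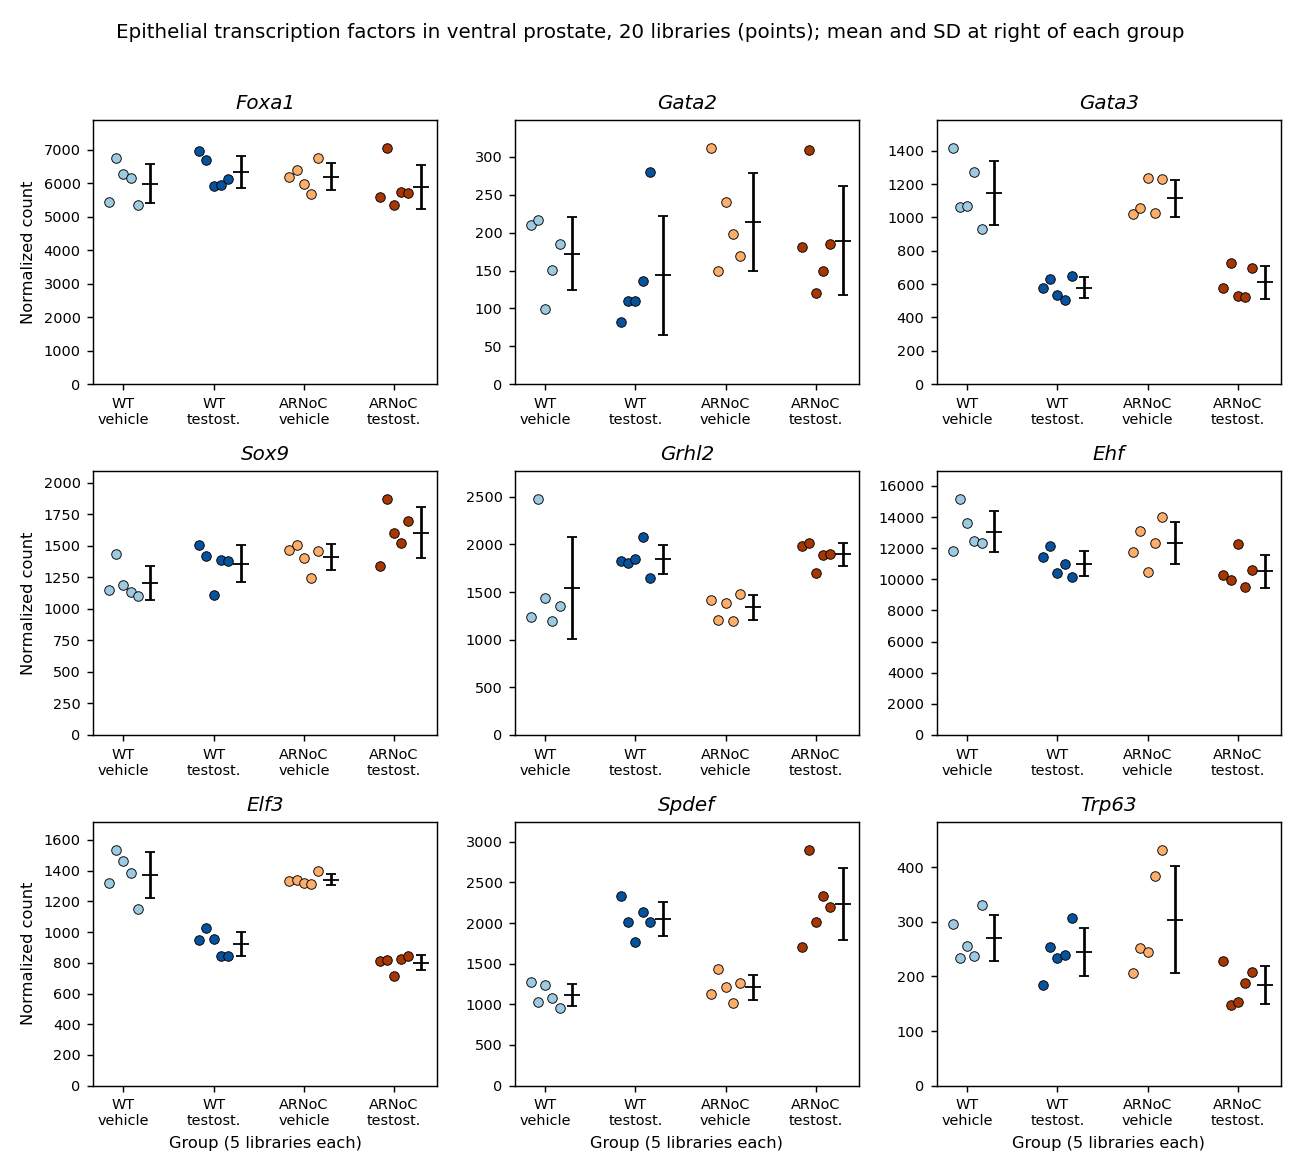
Normalized counts (linear axes from 0) of the 9 factors in the 20 libraries; points are libraries, and the bar at the right of each group is the mean with its SD. For Gata3, Elf3 and Spdef the testosterone points lie apart from the vehicle points in both genotypes.

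**Figure D3:**
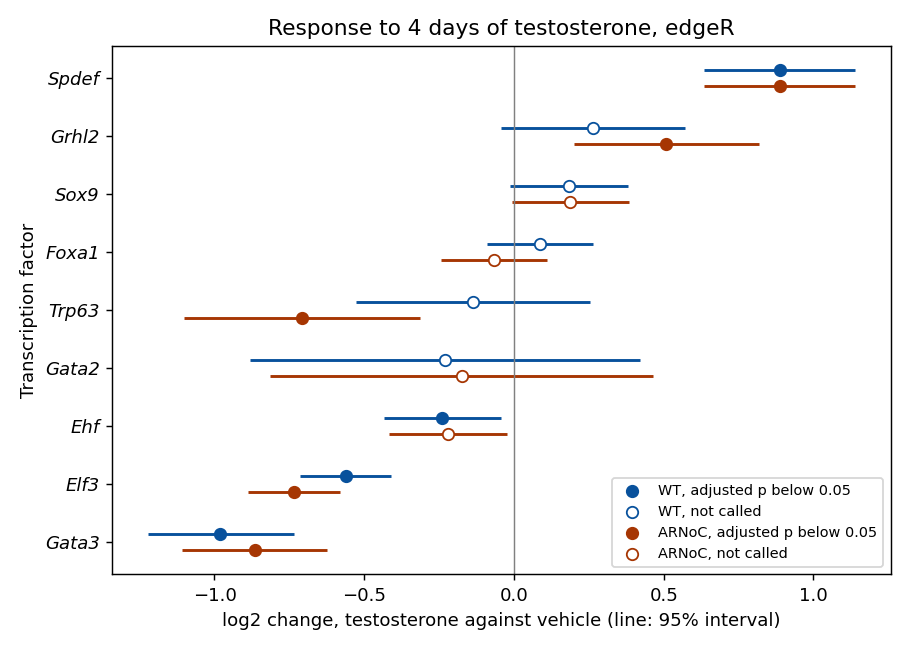
Log2 change of each factor with testosterone against vehicle in WT (blue) and ARNoC (brown), with 95% intervals; filled points passed the test and open points did not. Spdef lies at 0.89 in both genotypes, and Gata3 at -0.98 and -0.87.

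Gata3 (chromosome 2, 9857078 to 9890034, minus strand, in mm10), a GATA factor of luminal epithelium that also directs T cell development, fell in both genotypes. WT libraries with vehicle held 1414, 1060.3, 1069, 1271 and 929.8 normalized counts, and those with testosterone held 574, 631, 535, 503 and 649.8. ARNoC libraries held 1019, 1056, 1236, 1024 and 1232 with vehicle and 574, 729, 530.5, 520.1 and 694 with testosterone. Every testosterone library was below every vehicle library in each genotype. The fall was 1.97-fold in WT (log2 change -0.98 ± 0.12 SE, adjusted p 1.57e-06) and 1.82-fold in ARNoC (-0.87 ± 0.12, adjusted p 7.04e-06). In bulk tissue, fewer cells of a type and less RNA per cell cannot be told apart. Of the lymphocyte markers, 6 of the 8 tested fell in WT and 5 in ARNoC, where 18.8% and 16.8% of all genes fell. The 12 listed summed to 189 to 321 and 164 to 249 normalized counts with vehicle. With testosterone they summed to 50.7 to 106 and 50.3 to 93.5. The part of these cells in the fall of Gata3 was not tested. Of the urothelial markers, 4 of 6 were tested, of which 1 rose and 1 fell in WT and 0 rose and 1 fell in ARNoC (Upk1b fell in both, by 1.57 and 2.63 on the log2 scale, and was named after its values were seen). The rise in WT was not called by DESeq2 or limma-voom. The urothelial sum was lower with testosterone in ARNoC, without overlap, and its part in the ARNoC falls of Gata3, Elf3 and Trp63 was not tested. After removing group means, Gata3 and the mean of the 8 tested lymphocyte markers had a Pearson r of -0.059 over the 20 libraries (0.825 with the group means). Of the lymphocyte markers that did not reach the filter, Cd3d and Cd4 held at most 18.2 and 27.9 normalized counts. Of those tested, Cd3g and Nkg7 had the smallest adjusted p in WT. With single libraries left out, Cd3g ranged over -1.52 to -1.23 in WT and -2.04 to -1.64 in ARNoC on the log2 scale. Nkg7 ranged over -1.48 to -1.24 and -2.17 to -1.88. Relative to the 14 epithelial markers, Gata3 fell by 0.95 in WT and by 0.78 in ARNoC on the log2 scale (adjusted p 3.96e-07 and 5e-06). A gene on the same strand, 9230102O04Rik, shares 77 exon bases with Gata3 and held at most 70 counts in a library.

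Gata2 (chromosome 6, 88193891 to 88207032, plus strand), the other GATA factor of the list, was low and variable. It ranged over 98.6 to 216 normalized counts in WT with vehicle, 81.6 to 280.4 in WT with testosterone, 149 to 311 in ARNoC with vehicle and 121 to 309 in ARNoC with testosterone, and the groups overlapped throughout. Its coefficients of variation were 28.1 to 54.9%, against 9.97 to 16.7% for Gata3. The log2 changes with testosterone were -0.23 in WT (95% interval -0.88 to 0.42) and -0.18 in ARNoC (-0.81 to 0.46), and changes within those bounds are not excluded.

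Of the other GATA genes, Gata1 and Gata4 did not reach the filter and 2 were tested. Gata6 went from a range of 9.88 to 127 normalized counts with vehicle to one of 2.36 to 45.8 with testosterone in WT and was called lower in WT (log2 change -1.76, adjusted p 0.0461), a call that limma-voom and epithelial-marker scaling did not make and that ended without 7 of the 10 libraries in turn. In ARNoC Gata6 was not called (-0.82), and Gata5 was called in neither genotype (-1.31 and -0.14).

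Spdef (chromosome 17, 27714352 to 27728955, minus strand), an ETS factor tied to secretory cells, rose 1.85-fold in both genotypes. WT libraries held 1279, 1032, 1234, 1076 and 958 normalized counts with vehicle and 2334, 2014, 1762, 2141 and 2010.2 with testosterone. ARNoC libraries held 1129, 1430.0, 1214, 1019 and 1258 with vehicle and 1709, 2899.7, 2018, 2328 and 2196 with testosterone. No testosterone library overlapped the vehicle libraries of its genotype, and ARNoC testosterone library 2 was the highest of all. The log2 change was 0.89 ± 0.12 SE in WT (adjusted p 7.97e-06) and 0.89 ± 0.12 in ARNoC (adjusted p 8.18e-06). The difference between the responses was -0.001, with a 95% interval of -0.35 to 0.35, so differences within that interval are not excluded. Total-count scaling left the rise at 0.46 in WT and 0.54 in ARNoC, still called.

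Reported targets of Spdef are set against all genes, of which 20.4% rose and 18.8% fell in WT and 19.4% and 16.8% in ARNoC. Of the 5 tested of 6 listed, 2 rose and 1 fell in WT and 3 rose and 1 fell in ARNoC, with a median log2 change of 0.59 and 1.40. Creb3l4, a membrane-bound factor of secretory cells, went from 423 ± 46.1 to 1733 ± 488 (SD, n = 5) in WT and from 628 ± 136 to 2608 ± 432 in ARNoC, rising 4.12-fold and 4.16-fold (adjusted p 2.22e-08 and 1.66e-08). Agr2, a disulfide isomerase that folds secreted mucins, rose 4.47-fold in WT and 3.16-fold in ARNoC. Creb3l1, a related membrane-bound factor, was called in ARNoC and not in WT (0.59 in WT, adjusted p 0.0648, and 1.40 in ARNoC, adjusted p 0.000195, a difference that was not called, 0.80, adjusted p 0.538). The member that fell was Tmprss2, a membrane serine protease that also stands in the list of Grhl2 targets, by 0.75 and 0.69 on the log2 scale.

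Elf3 (chromosome 1, 135253575 to 135258568, minus strand), an epithelial ETS factor that rises in injured and inflamed epithelia, fell in both genotypes. WT libraries with vehicle held 1318, 1536, 1463, 1385 and 1147 normalized counts, and with testosterone 948, 1029, 952, 843 and 845. In ARNoC the values were 1334, 1341, 1318, 1311 and 1398 with vehicle and 809.9, 816, 714, 822 and 845 with testosterone. The groups stood apart in both genotypes, and the coefficient of variation of the 5 ARNoC vehicle libraries was 2.58%. Elf3 fell 1.48-fold in WT (log2 change -0.56 ± 0.07 SE, adjusted p 4.92e-06) and 1.67-fold in ARNoC (-0.74 ± 0.07, adjusted p 1.71e-07). The larger fall in ARNoC was not called as a difference (-0.17, 95% interval -0.39 to 0.04, unadjusted p 0.11, adjusted p 0.66). Relative to the epithelial markers the log2 changes were -0.53 and -0.64, both called, and the antisense gene Gm26642, which shares 162 exon bases, held at most 5 counts.

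Ehf (chromosome 2, 103263433 to 103303278, minus strand), the highest of the 9 per length, was slightly lower with testosterone. In WT it ranged over 11806 to 15151 normalized counts with vehicle and 10118 to 12139 with testosterone, and over 10466 to 13990.4 and 9488 to 12280.1 in ARNoC, and the groups overlapped in both genotypes. The log2 change was -0.24 ± 0.09 SE in WT (adjusted p 0.0488, called lower) and -0.22 ± 0.09 in ARNoC (adjusted p 0.0721, not called). The WT call ended without WT vehicle library 2 (-0.18, adjusted p 0.141), 3 or 4 or WT testosterone library 5, without both stroma-poor libraries (-0.18, adjusted p 0.117) and relative to the epithelial markers (-0.21, adjusted p 0.123), while DESeq2 called Ehf lower in ARNoC too (-0.23, adjusted p 0.0296).

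Within each library the ratio of Spdef to Gata3 counts had to separate the treatments, since Spdef rose and Gata3 fell without overlap in both genotypes. It was 0.982 ± 0.119 (SD, n = 5) in WT with vehicle and 1.09 ± 0.155 in ARNoC with vehicle, and 3.58 ± 0.539 and 3.68 ± 0.612 with testosterone. Spdef to Elf3 went from 0.819 ± 0.109 to 2.24 ± 0.312 in WT and from 0.902 ± 0.107 to 2.78 ± 0.521 in ARNoC. Such a ratio does not depend on how libraries are scaled, and it shows unequal change of the genes in it, not which of them changed.

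All 16 other ETS genes listed were tested. In WT 1 rose and 10 fell, where 20.4% of all genes rose and 18.8% fell. In ARNoC 1 rose and 5 fell, where 19.4% rose and 16.8% fell. The median log2 change of the 16 was -0.44 and -0.24. Total-count scaling gave 14 lower in WT and 10 in ARNoC, where it called 59.8% and 49.5% of all genes lower. Epithelial-marker scaling gave 6 and 2, where it called 13.6% and 9.53% lower. The gene that rose in both was Elf5, an ETS factor of secretory epithelia, by 1.24 and 1.51 on the log2 scale. Ets2 fell from 1654 ± 222 to 1081 ± 29.8 in WT and from 1646 ± 53.1 to 1165 ± 34.3 in ARNoC (adjusted p 8.33e-07 and 1.07e-05). Etv6, a repressor of the family, fell by 0.41 and 0.34. Among the others that fell in WT were Spi1 (-1.81), the myeloid factor, and Fli1 (-1.54) and Erg (-1.35), factors of endothelium and blood. Ets1 (-1.20), high in lymphocytes and endothelium, fell too, and further ETS genes that fell are not named here. None of these 4 was called in ARNoC, but in the interaction 0 of the 16 were called, so no difference between genotypes was shown. In the same WT comparison all 12 macrophage markers and 3 of 10 endothelial markers fell (7 without WT vehicle library 2, 9 without both stroma-poor libraries and 6 with DESeq2), from sums of 3407 to 19272 to 1597 to 3678 and of 847 to 2826 to 312 to 1178 normalized counts; their part in the fall of the ETS genes was not tested. Elf5, Creb3l1 and these 4 were chosen after their values were seen.

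Grhl2 (chromosome 15, 37233036 to 37363569, plus strand), the Grainyhead factor that holds up epithelial junction genes, rose in ARNoC. ARNoC libraries with vehicle held 1416, 1207, 1389, 1199 and 1484 normalized counts, and those with testosterone held 1988, 2014, 1702, 1889.6 and 1894, with no overlap. The rise was 1.42-fold (log2 change 0.51 ± 0.15 SE, adjusted p 0.0105). In WT the values were 1241, 2476, 1442, 1199 and 1356 with vehicle and 1831, 1802, 1849, 2083 and 1652 with testosterone. WT vehicle library 2 lay above every other library of the study, while the other 4 WT vehicle libraries lay below every testosterone library. With that library the WT change was 0.26 (95% interval -0.05 to 0.57, adjusted p 0.168, not called), and without it 0.50 (adjusted p 8.96e-05, called higher). The difference between the responses was 0.25 (95% interval -0.19 to 0.68, adjusted p 0.775). Under total-count scaling Grhl2 stood at -0.16 in WT and 0.16 in ARNoC, and neither was called.

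An antisense gene, Gm16136, shares 169 exon bases with Grhl2 on the opposite strand. It had more counts on average in each group, with up to 4802 in a library against 3150 for Grhl2. The mean ratio of Grhl2 to Gm16136 was 0.885 and 0.768 in WT with vehicle and testosterone and 0.695 and 0.631 in ARNoC. Since no source states whether counting used the strand, reads from the shared bases cannot be told apart. Gm16136 ranged over 1296 to 2695 and 2212 to 2739 normalized counts in WT with vehicle and testosterone and over 1631 to 2382 and 2209.9 to 3427 in ARNoC, and it rose by 0.47 (adjusted p 0.0314) and 0.66 (adjusted p 0.00407) on the log2 scale. Over the 20 libraries it followed Grhl2 with a Pearson r of 0.838 (0.834 after removing group means), and WT vehicle library 2 was high in both. Gm16136 was picked out after its values were seen. The plot of Grhl2 against Gm16136 shows that library apart from its group along both axes.

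**Figure D4:**
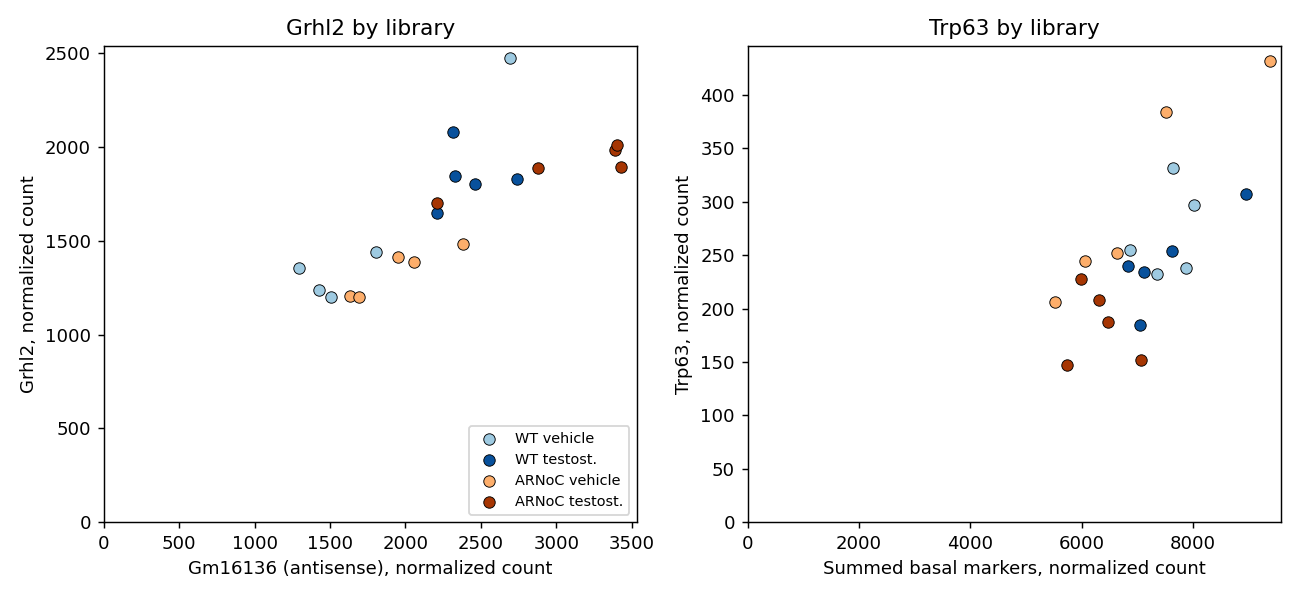
Left, Grhl2 against its antisense gene Gm16136; right, Trp63 against the sum of 14 basal markers, all in normalized counts, 1 point per library, coloured by group. WT vehicle library 2 is the highest point for Grhl2 (2476), and ARNoC vehicle library 5 is the highest for both Trp63 (432) and the basal sum (9375).

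All 8 reported Grhl2 targets were tested. In WT 0 rose and 5 fell, where 20.4% of all genes rose and 18.8% fell. In ARNoC 0 rose and 6 fell, where 19.4% rose and 16.8% fell. The median log2 change of these targets was -0.37 and -0.49. At an unadjusted p below 0.05 the count of those that rose was also 0 in both, DESeq2 and limma-voom called 0 higher, and epithelial-marker scaling called 1 higher in WT and 0 in ARNoC. Tmprss2 fell from 4971 ± 776 to 2947 ± 252 normalized counts in WT and from 4652 ± 394 to 2872 ± 262 in ARNoC (adjusted p 6.72e-06 and 1.8e-05). Cldn4, a tight junction claudin, fell 1.58-fold and 1.47-fold (adjusted p 0.000278 and 0.00145). Of the 8 targets, 5 are also among the 14 epithelial markers. Grhl1, the family member tested besides Grhl2, fell in ARNoC (-0.37, adjusted p 0.00422) and stood at -0.21 in WT (adjusted p 0.0866), and Grhl3 did not reach the filter.

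Foxa1 (chromosome 12, 57540628 to 57546916, minus strand), the main forkhead pioneer of the prostate, was not called in any of the 5 comparisons. It ranged over 5354 to 6747 normalized counts in WT with vehicle, 5923 to 6978 in WT with testosterone, 5675 to 6751 in ARNoC with vehicle and 5358 to 7047 in ARNoC with testosterone. The groups overlapped, and ARNoC testosterone library 2 was the highest. Log2 changes with testosterone were 0.09 in WT (95% interval -0.09 to 0.27) and -0.07 in ARNoC (-0.25 to 0.11), and neither passed the test (adjusted p 0.435 and 0.561). Changes within those intervals are not excluded. Total-count scaling gave -0.34 and -0.42, both called lower, where the median of all genes was -0.45 and -0.36. Over the 20 libraries Foxa1 followed the mean of the 14 epithelial markers (Pearson r 0.79, and 0.856 after removing group means). It ran against the fibroblast markers (-0.709 and -0.772). This was not particular to fibroblasts, since endothelial (-0.741 and -0.762), smooth muscle (-0.628 and -0.754) and macrophage markers (-0.518 and -0.785) gave similar values. Foxa2 reached at most 1.4 normalized counts in any library and Foxa3 was at 0 in all 20, so neither was tested.

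Sox9 (chromosome 11, 112782224 to 112787760, plus strand) was not called in any of the 5 comparisons either. It ranged over 1099 to 1439 normalized counts in WT with vehicle, 1114 to 1503 in WT with testosterone, 1242 to 1506 in ARNoC with vehicle and 1338 to 1871 in ARNoC with testosterone, with overlap between all groups. Testosterone gave log2 changes of 0.18 ± 0.09 SE in WT and 0.19 ± 0.09 in ARNoC, and neither passed the test (adjusted p 0.129 and 0.126). The WT change was called without WT vehicle library 2 (0.26, adjusted p 0.0271), and both were called higher relative to the epithelial markers (0.22 and 0.28, adjusted p 0.0499 and 0.0144). Total-count scaling turned them to -0.24 (adjusted p 0.0175) and -0.16.

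Of 12 other SOX genes, 9 were tested. Of these, 0 rose and 2 fell in WT, where 20.4% of all genes rose and 18.8% fell. The counts in ARNoC were 0 and 1, where 19.4% rose and 16.8% fell. The median log2 change of the 9 was -0.78 and 0.14. At an unadjusted p below 0.05, 1 was higher in WT and 0 in ARNoC, and DESeq2 and limma-voom called 0 higher in both. Without both stroma-poor libraries 1 rose in each genotype and 4 fell in WT. Under total-count scaling 7 fell in WT and 4 in ARNoC, where 59.8% and 49.5% of all genes were called lower. Sox4, a factor of progenitor cells, fell in both, from 274 ± 29 to 158 ± 16.6 normalized counts in WT (adjusted p 0.00641) and from 216 ± 92.3 to 122 ± 33 in ARNoC (adjusted p 0.0062). Sox2, a stem cell factor, fell in WT (-0.72, adjusted p 0.00283) and stood at -0.36 in ARNoC (adjusted p 0.114).

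Trp63 (chromosome 16, 25683763 to 25892102, plus strand), the factor of basal cells, fell in ARNoC. ARNoC libraries held 206, 252, 245, 384 and 432 normalized counts with vehicle and 228, 148, 152, 188 and 208 with testosterone, and the groups overlapped, with vehicle libraries 4 and 5 well above the rest. WT libraries held 296, 233, 255, 238 and 331 with vehicle and 185, 253, 234, 239.6 and 307 with testosterone, with wide overlap. The ARNoC change was -0.71 ± 0.19 SE on the log2 scale (1.63-fold lower, adjusted p 0.00579), and stayed called without either of those libraries (-0.61 and -0.54). In WT the change was -0.14 (95% interval -0.53 to 0.26, adjusted p 0.595). The difference between the responses was -0.57 ± 0.27, with an unadjusted p of 0.044 and an adjusted p of 0.569, so it did not pass the correction. Without both stroma-poor vehicle libraries that difference was -0.36.

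Basal markers are set against all genes, of which 20.4% rose and 18.8% fell in WT and 19.4% and 16.8% in ARNoC. Of the 12 tested of 14 listed, 2 rose and 5 fell in WT, with a median of -0.08. In ARNoC 1 rose and 5 fell, with a median of -0.35. Total-count scaling gave 0 higher and 7 lower in WT and 0 and 9 in ARNoC. Of all genes it called 7.2% higher and 59.8% lower in WT and 7.72% and 49.5% in ARNoC. Epithelial-marker scaling gave 2 and 4 in WT and 1 and 3 in ARNoC. Its shares of all genes were 19.9% and 13.6% in WT and 23.2% and 9.53% in ARNoC. The basal marker sum was highest in ARNoC vehicle libraries 5 and 4 of that group (9375 and 7515 normalized counts, against 5519.7 to 6636 in the other 3). The same libraries led for Trp63. Krt5, the basal keratin that Trp63 followed across libraries (Pearson r 0.839), fell by 0.62 in ARNoC (adjusted p 0.0289) and stood at -0.07 in WT. Scaled to the tested basal markers, the Trp63 change in ARNoC was -0.34 and not called (adjusted p 0.0938), and that in WT was 0.18. That scaling also put the median log2 change of all genes at 0.30 in WT and 0.30 in ARNoC. It called 6.49% of all genes lower in WT and 4.57% in ARNoC. Krt17 and Krt14, keratins of basal and stressed epithelium, fell 2.75-fold and 2.65-fold in WT (adjusted p 0.000166 and 0.000538), where Trp63 was not called. The part of basal cell number in the fall of Trp63 was not tested, since a scaling that shifts all genes cannot show it.

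All 10 reported targets of Trp63 were tested. In WT 2 rose and 5 fell, where 20.4% of all genes rose and 18.8% fell. In ARNoC 2 rose and 5 fell, where 19.4% rose and 16.8% fell, so the targets that rose stood near the share of all genes. The medians of the 10 were -0.26 and -0.32, and 6 of the 10 are also basal markers. Total-count scaling gave 1 higher and 7 lower in each, and epithelial-marker scaling 2 higher and 3 lower in each. Of all genes, total-count scaling called 7.2% higher and 59.8% lower in WT and 7.72% and 49.5% in ARNoC. The shares under epithelial-marker scaling were 19.9% and 13.6% in WT and 23.2% and 9.53% in ARNoC. Perp, a desmosome protein, rose from 1348 ± 179.9 to 3252 ± 358 normalized counts in WT and from 1518 ± 199.9 to 3169 ± 252 in ARNoC (adjusted p 8.61e-09 and 9.11e-08). Both other genes of the p53 family fell in each genotype. Trp53 went from 455 ± 50.2 to 345 ± 32.9 in WT (adjusted p 0.00105) and from 408 ± 10.01 to 348 ± 31.8 in ARNoC (adjusted p 0.0442, a call that ended without any 1 of the 5 ARNoC vehicle libraries). Trp73 was near the floor of detection, at 9.26 to 17.6 and 2.36 to 6.2 normalized counts in WT with vehicle and testosterone and 7.41 to 11.5 and 0.0 to 3.51 in ARNoC.

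Between genotypes no factor passed the test. With vehicle 0 of 9 were higher and 0 lower in ARNoC, where 0.17% of all genes were higher and 0.151% lower. With testosterone the counts were again 0 and 0, where 0.681% of genes were higher and 1.01% lower, and in the interaction they were 0 and 0, where 0% of genes were called in either direction. At an unadjusted p below 0.05 there were 1 factor with vehicle, 3 with testosterone and 1 in the interaction, and DESeq2 and limma-voom called 0 in each. Sox9 was higher in ARNoC by 0.24 with vehicle and 0.24 with testosterone (unadjusted p 0.019 and 0.0178, adjusted p 0.49 and 0.226), and total-count scaling called it with testosterone (0.33, adjusted p 0.0407). With testosterone, Elf3 stood at -0.20 (adjusted p 0.205) and Trp63 at -0.40 (adjusted p 0.333) in ARNoC against WT. With vehicle the widest 95% interval of the 9 was that of Gata2 (-0.32 to 0.96) and the narrowest that of Elf3 (-0.18 to 0.13), and differences within these are not excluded.

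Several other transcription factors of prostate epithelium had larger changes than any of the 9. All 24 listed were tested. In WT 9 rose and 5 fell, where 20.4% of all genes rose and 18.8% fell. In ARNoC 8 rose and 7 fell, where 19.4% rose and 16.8% fell. The medians of the 24 were -0.06 and 0.02. Total-count scaling gave 7 higher and 12 lower in WT and 7 and 11 in ARNoC. Epithelial-marker scaling gave 9 and 4 in WT and 8 and 5 in ARNoC. Of all genes, total-count scaling called 7.2% higher and 59.8% lower in WT and 7.72% and 49.5% in ARNoC. The shares under epithelial-marker scaling were 19.9% and 13.6% in WT and 23.2% and 9.53% in ARNoC. Zbtb16, a zinc finger repressor, went from 229 ± 22.9 to 1157 ± 91 normalized counts in WT and from 307 ± 30.6 to 1164 ± 117 in ARNoC. It rose 5.08-fold and 3.8-fold (adjusted p 3.72e-13 and 4.28e-12). With vehicle, Zbtb16 was 1.35-fold higher in ARNoC than in WT (adjusted p 0.0357, a call that ended without 8 of the 10 libraries in turn). Hoxa13, a posterior Hox factor, was 2.07-fold lower in ARNoC with vehicle and 2.2-fold lower with testosterone (adjusted p 0.000241 and 7.89e-05), and Barx2 was 1.64-fold lower with testosterone (adjusted p 0.0255, a call that ended without 5 of the 10 libraries in turn). Of 6 mesenchymal repressors, which oppose Grhl2 and epithelial genes, 5 were tested, of which 0 rose and 1 fell in WT (Snai2, -0.71, adjusted p 0.0262) and none was called in ARNoC by edgeR, DESeq2 or limma-voom or at an unadjusted p below 0.05. The Snai2 call was not made by limma-voom and ended without 5 of the 10 libraries in turn, and under total-count scaling all 5 were lower in WT and 1 in ARNoC, and with epithelial-marker scaling 0 and 0. Zeb2, the other one named, stood at -1.20 and -0.56.

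Across the 20 libraries, which share the 4 groups and the scaling, each factor had genes that followed it closely, given as a description. Spdef was followed most closely by Edem2 (Pearson r of log2 CPM 0.973), Phgdh (0.965) and Trabd (0.965). Elf3 was followed by Rnf128 (0.973), Tpbg (0.969) and Tax1bp1 (0.963), and Gata3 by Cyb5r3 (0.959), Gpt2 (0.959) and Crip2 (0.954). After removing group means, which differ with treatment, the r values were 0.769 to 0.82 for Spdef, 0.651 to 0.892 for Elf3 and 0.659 to 0.76 for Gata3. Foxa1 was followed by Slc35b3 (0.859, and 0.933 after removing group means), Cyb561 (0.776) and Prpf3 (0.767), and Ehf by Cul3 (0.911), Gopc (0.911) and Supt16 (0.858). Grhl2 had Pip5k1b (0.896), Abcd3 (0.862) and Alg9 (0.859), Sox9 had Gne (0.859), Pcbd1 (0.853) and Zfp703 (0.846), Trp63 had Ugt2b34 (0.884), Aldh3a1 (0.87) and Krt5 (0.839), and Gata2 had Pdlim4 (0.761), Ube2e2 (0.752) and Ethe1 (0.739).

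Among the factors themselves, Gata3 and Elf3 ran together (0.893) and Spdef ran against Elf3 (-0.855) and Gata3 (-0.799). After removing group means these values were 0.29, 0.182 and 0.451, so the opposite course of Spdef and Gata3 lies between the groups. Foxa1 and Sox9 ran together more closely within groups (0.736) than over all libraries (0.423), as did Foxa1 and Elf3 (0.669 and 0.208).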

How the data were processed

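Total RNA from snap-frozen ventral prostate was made into TruSeq libraries, per the labels' protocols. The submitters' processing notes name FastQC 0.11.7, HISAT2, SAMtools 1.5, HTSeq, DESeq2 and build mm10; neither the strand setting nor the annotation is given in the sources used here. The authors deposited raw counts per gene and a table of normalized counts, a signal that equals the count divided by a size factor (largest difference 3.1e-09). Levels printed are these normalized counts, and tests used the deposited counts. One edgeR 4.0.16 quasi-likelihood fit (R 4.3.3, TMM scaling) covered the 20 libraries with 1 mean per group and no covariate. It tested 15261 genes that reached 10 normalized counts in 5 or more libraries, with Benjamini-Hochberg adjustment over all of them and a threshold of 0.05. Intervals use the fit's total degrees of freedom, residual plus prior. Each SE printed is the absolute log2 change divided by the square root of the F statistic of its test. Alternatives were DESeq2 1.42.0, limma 3.58.1 (voom), median-of-ratios, total-count, epithelial-marker and basal-marker scaling, other filters, a robust fit, the compared groups alone, and leaving out single libraries or both stroma-poor ones. Coordinates and exon lengths come from GENCODE for mm10. Libraries held 8861646 to 21600352 counts. Related genes were named by rule: from each list, the 2 with the smallest adjusted p in WT, those called between genotypes, and the 3 genes of highest Pearson r with each factor; exceptions are marked in the text, and some genes the rule names are not reported here. The factors and lists were chosen with earlier results of these data known. Protein sequences were not analysed here.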

Additional observations from a re-analysis of the deposited data

Results flagged for a closer look

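Of 36 groups of 5 libraries (9 factors in 4 groups), 5 held a library whose gap to its nearest neighbour was large against the range of the group, where chance gives about 1 in 20. WT vehicle library 2 stood above the rest of its group for Grhl2 (2476 normalized counts) and for Sox9 (1439), and it was the library with the lowest fibroblast and macrophage sums of that group. ARNoC testosterone library 2 stood above its group for Foxa1 (7047). WT testosterone library 5 stood above its group for Gata2 (280.4). ARNoC testosterone library 3 lay below its group for Elf3 (714.4).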

How the results depend on the processing

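The testosterone responses of Gata3, Elf3 and Spdef kept their direction in both genotypes under every alternative read for them. They also kept their side of the threshold. Basal-marker scaling was fitted to all genes tested, but of the 9 factors it was read for Trp63 alone. Whether the responses of Gata3, Elf3 and Spdef keep their calls under it is not given here. Counts of factors that rose in WT were 2 with epithelial-marker scaling, 3 without both stroma-poor vehicle libraries and 1 to 3 with single libraries left out (3 without WT vehicle library 2). Total-count scaling gave 6 lower in WT, 1 higher and 5 lower in ARNoC, and 1 higher (Sox9) in ARNoC against WT with testosterone. With testosterone against vehicle it called 59.8% of all genes lower in WT, and 7.72% higher and 49.5% lower in ARNoC. It also turned the log2 changes of Foxa1 (-0.337), Sox9 (-0.239), Grhl2 (-0.155) and Ap1m2 (-0.0817) in WT, of Sox9 (-0.161) and Ap1m2 (-0.0724) in ARNoC, of Ehf between genotypes with testosterone (0.0278) and the Spdef interaction (0.0737). Epithelial-marker scaling turned Foxa1 in ARNoC (0.0189) and the Spdef interaction (0.0523), and basal-marker scaling turned Trp63 in WT (0.182). The Spdef interaction was 0.00273 with DESeq2, 0.0027 with median-of-ratios scaling, 0.00512 with a stricter filter and 0.0406 without both stroma-poor libraries; the Sox9 interaction was -0.00396 with limma-voom, -0.000836 with no filter and -0.0581 without those libraries; and the Gata2 interaction was -0.0415 with limma-voom and -0.118 without them. Without them, the vehicle difference between genotypes was 0.00212 for Elf3 and -0.0428 for Trp63. With single libraries left out, interactions ranged over -0.187 to 0.455 (Gata2), -0.0727 to 0.0563 (Sox9), -0.0477 to 0.0723 (Ehf) and -0.111 to 0.0781 (Spdef). Genotype differences ranged over -0.107 to 0.0437 (Gata3), -0.278 to 0.0417 (Grhl2) and -0.0855 to 0.0213 (Elf3) with vehicle and -0.000993 to 0.122 (Gata3) and -0.000722 to 0.0851 (Grhl2) with testosterone. The ARNoC response ranged over -0.458 to 0.00113 for Gata2 and -1.05 to 0.27 for Gata5. The cause of these changes was not tested. No paired analysis was possible because the labels give no replicate numbers, and the numbers used here follow the order of deposit. Depth limits Gata2 and Trp63 most, whose lowest counts in a library were 53 and 120.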
